A study of Mus musculus with 12 samples.

Results

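The genes described here are 38 genes of cholesterol and fatty acid synthesis, picked by symbol and found by their Ensembl identifiers in 2 deposited tables of gene counts. The lung table lists 56262 identifiers and the AT2 table lists 54532, and all 38 genes stand in both. They comprise 18 genes of the sterol branch, 13 of the fatty acid branch, 4 regulators and 3 genes of glycerolipid synthesis. The libraries are bulk poly-A RNA-seq from C57BL/6 mice. Lung tumours came from 3 mice with a Med23 knockout in T cells, aged 18 months and numbered 102, 217 and 224, and each of them also gave normal lung from beside the tumour (adjacent tissue), so the tumours and the tissue next to them share the knockout, and no wild-type lung is analysed here. Alveolar type 2 (AT2) epithelial cells were sorted at 6 months from 3 mice with the same knockout (175, 179 and 191) and from 3 wild-type mice (176, 177 and 190). Med23 encodes a subunit of the Mediator complex of transcription. The labels name neither a Cre driver nor a tumour histology.

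Cells build cholesterol from acetyl-CoA through mevalonate, isoprenoids, squalene and lanosterol, and build fatty acids from the same precursor through malonyl-CoA. The membrane-bound factors SREBP-1 (Srebf1) and SREBP-2 (Srebf2) are escorted by SCAP, held back by INSIG proteins when sterols are abundant, and otherwise cleaved to enter the nucleus, where SREBP-2 mainly drives sterol genes and SREBP-1c mainly fatty acid genes. AT2 cells are known for making surfactant, which is rich in saturated phosphatidylcholine and cholesterol, and express lipogenic genes at high levels for that purpose.

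Lung libraries held 65163100 to 77951014 counts and AT2 libraries 15943084 to 18913242. Levels are CPM, a gene's counts over the library total on the usual CPM scale, after TMM scaling (trimmed mean of M values). Tests are edgeR's quasi-likelihood test over all genes of a table, with group as the only term. A gene passed when its Benjamini-Hochberg adjusted p was under 0.05. In lung this leaves out the pairing by mouse, which a further fit with the mouse as a block uses. Both libraries of mouse 217 stood apart, with levels that fell with gene length across genes (Spearman rho of -0.246 in its tumour and -0.221 in its adjacent tissue, against 0.0573 to 0.207 in the other lung libraries). Of the AT2 libraries, wild-type 177 stood apart on the first principal component (64.6, against -14.6 to -11.3 in the other 5), and wild-type 177 and 176 had negative rho with gene length (-0.219 and -0.173, against 0.0965 to 0.310 in the others). The summed CPM of 9 AT2 markers was 141300 to 144390 in knockout and 142250 to 178680 in wild-type AT2 libraries, while 6 T cell markers summed to at most 2.10 CPM and 6 endothelial markers to at most 5.90 CPM.

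The first comparison set tumours against the lung around them. The sterol genes lay on the lower side in tumours: all 18 had a negative log2 fold change, with a median of -0.89, against a median of 0.04 and 48.1% negative over all genes tested, and Pmvk alone changed sign in some of the fits with a library or a mouse left out. Idi1, Msmo1, Cyp51 and Sqle passed, with a mean CPM in tumours that was 0.253 to 0.312 times that in adjacent tissue. Fatty acid genes were divided, with 4 positive and 9 negative log2 fold changes, a median of -0.19 (-0.35 without tumour 217, -0.024 without tumour 224 and -0.037 without adjacent 217) and no gene past the test, and Elovl5, Fads2 and Elovl6, all close to 0, changed sign under other scalings. Fasn was the highest, with a mean CPM 2.91 times as high in tumours as in adjacent tissue (adjusted p = 0.0618). Of the 38 genes, 4 passed as lower and 0 as higher, while of all 19995 genes tested 7.18% passed as lower, 2.86% as higher and 10.0% in all. With the mouse as a block, which uses the pairing of tumour and adjacent tissue, 12 of the 38 genes passed: 11 lower, 10 of which are sterol genes, and 1 higher, Fasn, against 14.9% of all genes, 9.34% lower and 5.57% higher. Leaving out 1 library at a time left 0 to 5 of them past the test. In bulk tissue, fewer cells of a type and less RNA per cell cannot be told apart.

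**Figure D1:**
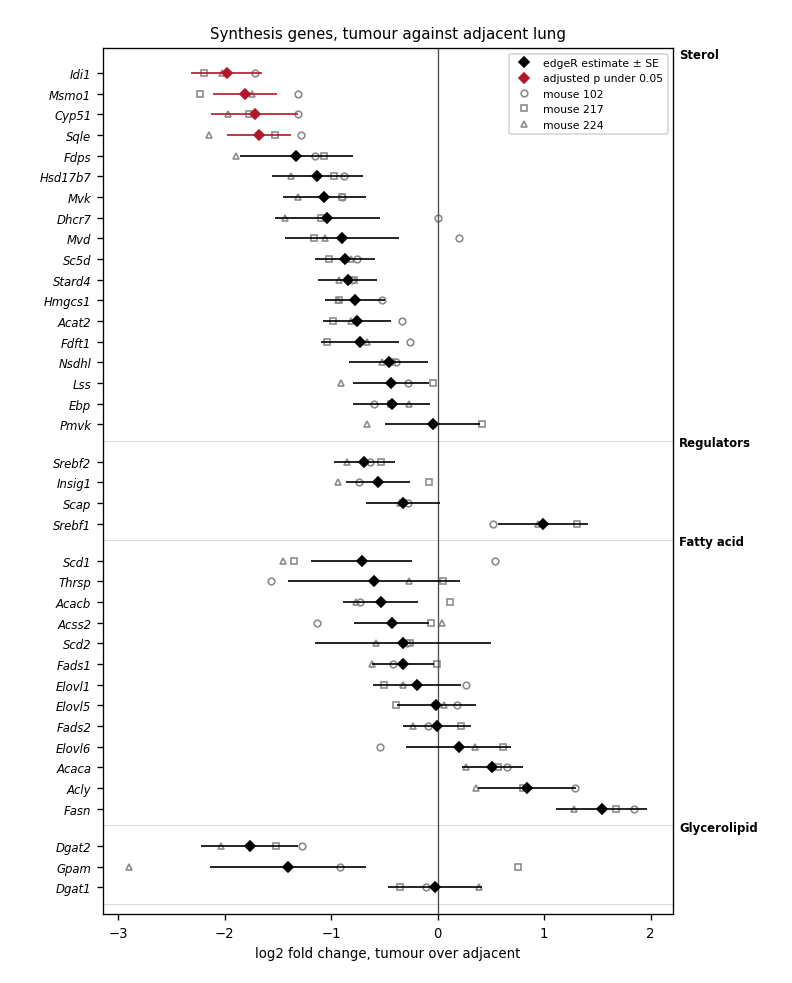
Log2 fold change (x axis, tumour over adjacent) of the 38 genes, ordered by value within each group. Diamonds are edgeR estimates with bars of 1 standard error, red where the adjusted p was under 0.05, and open symbols are the ratio within each mouse on the log2(CPM + 0.5) scale. All 18 sterol diamonds lie left of 0, while the fatty acid diamonds run from -0.71 (Scd1) to 1.54 (Fasn).

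Within the sterol branch, the 4 genes that passed act at the isoprenoid, squalene and lanosterol steps. Idi1, which isomerises isopentenyl diphosphate, had 18.8, 10.2 and 12.6 CPM in tumours 102, 217 and 224, against 62.8, 48.7 and 52.7 CPM in adjacent tissue of the same mice (log2 fold change -1.98 ± 0.34 SE, adjusted p = 0.0150). Msmo1, the sterol C4-methyl oxidase, had 21.2, 17.4 and 19.2 CPM in tumours, against 53.4, 83.2 and 65.3 CPM in adjacent tissue (-1.81 ± 0.30, adjusted p = 0.0146). For each of these genes every tumour lay below every adjacent library. Cyp51, which removes the C14 methyl group of lanosterol, had 22.0, 32.5 and 16.6 CPM in tumours, against 55.2, 112 and 66.4 CPM in adjacent tissue (-1.72 ± 0.40, adjusted p = 0.0375). Sqle, the squalene epoxidase and a rate-limiting enzyme of the branch, had 21.7, 23.0 and 16.6 CPM in tumours, against 53.4, 67.4 and 75.3 CPM in adjacent tissue (-1.68 ± 0.30, adjusted p = 0.0172). Neither of them overlapped between tumour and adjacent tissue, and Cyp51 was highest in mouse 217 on each side. When 1 library was left out, the calls held in 4 of 6 fits for Msmo1, 3 of 6 for Idi1, 2 of 6 for Sqle and 1 of 6 for Cyp51, with adjusted p of up to 0.125. Without both libraries of mouse 217 only 1 of the 38 genes passed, and without those of mouse 102 or of mouse 224 edgeR called 0 of them and 0 of all genes (16 and 5 of the 38 at an unadjusted p under 0.05, and 4034 and 3051 of all genes), a choice added after seeing the data.

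The other 14 sterol genes did not pass in edgeR's test of all 6 libraries without the block. Hmgcs1, which makes HMG-CoA at the head of the mevalonate pathway, had 90.3, 64.2 and 63.2 CPM in tumours, against 130.0, 122 and 121 CPM in adjacent tissue (-0.78 ± 0.28, adjusted p = 0.136, 0.0471 with the block and 0.0519 with the block and a correction for gene length). Fdps, the farnesyl diphosphate synthase, had 21.4, 60.8 and 23.5 CPM in tumours, against 48.3, 128 and 88.5 CPM in adjacent tissue (-1.33 ± 0.53, adjusted p = 0.176, and 0.0260 with the block). Its groups overlapped because tumour 217 lay above adjacent 102, with mouse 217 the highest in each tissue, and without tumour 217 it passed (adjusted p = 0.0463). With the block 4 more passed as lower: the mevalonate kinase Mvk (adjusted p = 0.0390), the 3-ketosteroid reductase Hsd17b7 (0.0461, and 0.0508 with the correction for gene length), the sterol desaturase Sc5d (0.0341, and 0.0490 with DESeq2 and no block) and the sterol carrier Stard4 (0.0340). All 4 had non-overlapping groups, with log2 fold changes of -1.13 to -0.85 without the block.

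The remaining 8 sterol genes were not called with or without the block, and their log2 fold changes ran from -1.04 for Dhcr7, the last reductase of the pathway, to -0.05 for Pmvk, the phosphomevalonate kinase. Pmvk had 47.2, 33.9 and 17.3 CPM in tumours, against 48.8, 25.3 and 27.7 CPM in adjacent tissue (-0.05 ± 0.45, adjusted p = 0.971), so its groups overlapped, and it was higher in the tumour of mouse 217 and lower in those of mice 102 and 224. Ebp, a sterol isomerase, had 27.2, 51.6 and 36.4 CPM in tumours, against 41.4, 70.1 and 43.9 CPM in adjacent tissue (-0.43 ± 0.36, adjusted p = 0.554). It was lower in the tumour of every mouse, though its groups overlapped. In all, 16 of the 18 sterol genes were lower in the tumour of all 3 mice, the exceptions being Pmvk and Mvd, against 29.3% of all genes tested. The groups did not overlap for 10 of the 18, all lower in tumours, against 18.9% of all genes. Exons of Fdft1 overlap those of Ctsb on the opposite strand over 18.3% of their length, and those of Fdps overlap Gm43738, a protein-coding gene on the same strand, over 26.7%. The next largest overlaps, all with genes on the opposite strand, were those of Scap (13.2%), Hmgcs1 (12.1%) and Idi1 (9.2%). The library kit does not mark strand, and how reads in shared stretches were counted is not given in the sources used here. The levels of Fdft1 and Fdps are therefore uncertain, and those of Scap, Hmgcs1 and Idi1 over a smaller part of their exons.

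**Figure D2:**
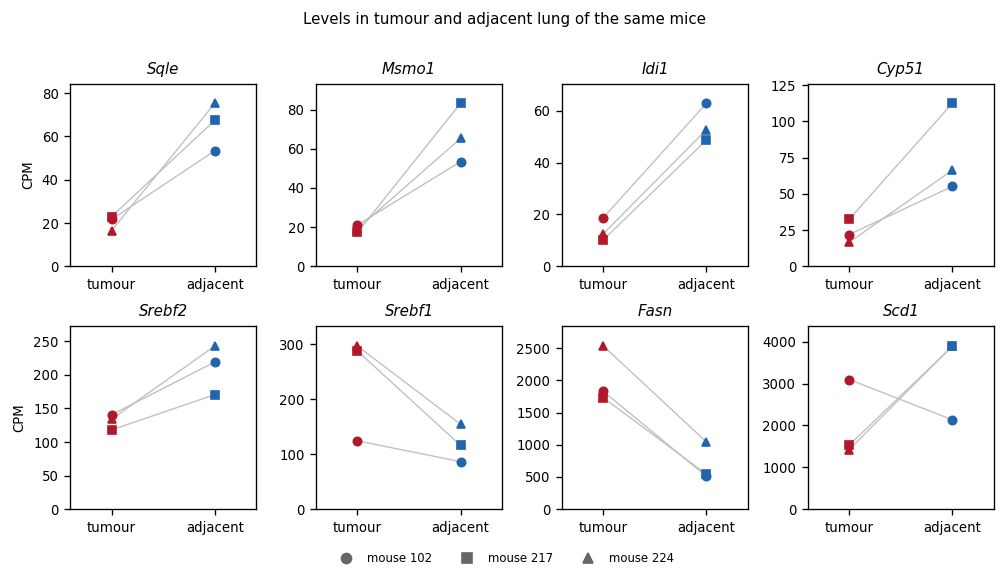
CPM (y axes, each from 0) of 8 genes in tumour and adjacent lung, with a line joining the 2 libraries of a mouse. Sqle, Msmo1, Idi1 and Cyp51 lie lower in all 3 tumours, Fasn lies higher in all 3 (1728 to 2532 CPM, against 509 to 1042 CPM), and Scd1 lies higher in the tumour of mouse 102 and lower in the tumours of mice 217 and 224.

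Promoter sequence is shown for 3 of the sterol genes that passed, for Hmgcs1 and, as the contrast within the fatty acid branch, for Fasn. RefSeq sequences for GRCm38.p6 cover 29 of the 38 genes, from 250 bases before to 50 after the transcription start. The 250 bases before the RefSeq start are printed 5′ to 3′ on the gene's strand. The GENCODE M21 annotation begins Idi1 at 8885501, Msmo1 at 64733792 and Cyp51 at 4104746, inside the printed windows. By that annotation all marked boxes of Idi1 and Msmo1 and the CCAAT box of Cyp51 lie inside the gene. Capitals mark the CCAAT box (CCAAT), the GC box (GGGCGG) and a sterol regulatory element (TCACNCCAC), each searched on both strands, so ATTGG and CCGCCC count as well. The windows are chr13:8885356-8885605, plus strand, for Idi1; chr8:64733579-64733828, minus strand, for Msmo1; chr5:4104698-4104947, minus strand, for Cyp51; chr13:119690101-119690350, plus strand, for Hmgcs1; and chr11:120824548-120824797, minus strand, for Fasn.
Idi1: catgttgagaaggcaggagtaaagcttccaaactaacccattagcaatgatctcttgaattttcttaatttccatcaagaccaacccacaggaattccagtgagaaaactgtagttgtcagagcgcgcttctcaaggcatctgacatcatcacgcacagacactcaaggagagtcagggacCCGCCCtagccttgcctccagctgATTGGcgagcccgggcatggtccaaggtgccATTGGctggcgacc
Msmo1: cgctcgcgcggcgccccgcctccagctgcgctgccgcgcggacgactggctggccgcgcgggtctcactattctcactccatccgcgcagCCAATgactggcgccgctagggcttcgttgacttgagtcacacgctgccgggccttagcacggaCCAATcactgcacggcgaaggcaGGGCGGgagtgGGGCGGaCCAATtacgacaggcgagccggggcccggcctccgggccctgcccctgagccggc
Cyp51: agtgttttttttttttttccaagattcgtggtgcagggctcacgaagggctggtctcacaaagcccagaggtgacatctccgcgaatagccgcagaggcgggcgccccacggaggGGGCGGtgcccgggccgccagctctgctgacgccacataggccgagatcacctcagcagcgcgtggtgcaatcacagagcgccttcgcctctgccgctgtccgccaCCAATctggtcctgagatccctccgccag
Hmgcs1: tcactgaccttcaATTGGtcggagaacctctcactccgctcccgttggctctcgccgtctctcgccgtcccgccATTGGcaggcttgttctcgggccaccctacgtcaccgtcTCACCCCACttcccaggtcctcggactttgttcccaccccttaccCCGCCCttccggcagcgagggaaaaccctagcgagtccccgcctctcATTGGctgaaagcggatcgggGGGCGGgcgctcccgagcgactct
Fasn: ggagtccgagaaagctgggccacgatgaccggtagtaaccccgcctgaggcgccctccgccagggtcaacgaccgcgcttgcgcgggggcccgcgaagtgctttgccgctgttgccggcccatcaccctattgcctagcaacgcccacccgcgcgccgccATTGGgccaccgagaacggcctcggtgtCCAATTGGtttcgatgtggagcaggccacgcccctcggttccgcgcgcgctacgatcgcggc
Hmgcs1 alone of the 29 held the sterol element in these letters, which 1.44% of the 27025 genes in the table hold. In the printed bases Msmo1 and Hmgcs1 held 3 CCAAT boxes and 2 GC boxes, Idi1 had 2 CCAAT boxes and 1 GC box, and Cyp51 held 1 of each. Fasn held 3 CCAAT boxes, the last 2 of which overlap in CCAATTGG, and no GC box. Over the full windows, a CCAAT box stood in 13 of 14 sterol promoters, 7 of 10 fatty acid promoters and 3 of 4 regulators, against 41.1% of all genes. A GC box stood in 13 of 14 sterol promoters, 4 of 10 fatty acid promoters and 4 of 4 regulators, against 38.2% of all genes and 51.0% of protein-coding ones. The E-box CACGTG stood in 3 of 14 sterol, 1 of 10 fatty acid and 2 of 4 regulator promoters, against 8.09%. These are matches of letters in a window and no measure of binding.

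Among the regulators the 2 SREBP genes stood on opposite sides of 0, and none of the 4 passed. Srebf2 had 141, 118 and 134 CPM in tumours, against 219, 170.5 and 243 CPM in adjacent tissue (-0.69 ± 0.29, adjusted p = 0.194). All 3 tumours lay below all adjacent libraries. Srebf1 had 124, 288 and 297 CPM in tumours, against 86.6, 116 and 154 CPM in adjacent tissue (0.99 ± 0.42, adjusted p = 0.203). It was higher in the tumour of each mouse, though tumour 102 lay within the range of the adjacent libraries, and it came to an adjusted p of 0.0526 with the block and 0.0488 with the block and a correction for gene length. Insig1, itself a target of SREBP-2 that retains SCAP in the endoplasmic reticulum, had 51.1, 80.8 and 51.5 CPM in tumours, against 85.6, 85.4 and 99.2 CPM in adjacent tissue (-0.56 ± 0.30, adjusted p = 0.325). Scap had 61.6, 45.7 and 80.0 CPM in tumours, against 74.6, 57.4 and 103 CPM in adjacent tissue (-0.32 ± 0.35, adjusted p = 0.662). Insig1 did not overlap between the groups, with tumour 217 just below the adjacent libraries, while Scap overlapped.

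In the fatty acid branch, the genes that make palmitate (Acly, Acaca and Fasn) lay above 0 and the desaturases and elongases mostly near or below it. No member was past the test without the block, and Acly (adjusted p = 0.0860) and Acaca (0.121) did not pass with it either. Fasn, the fatty acid synthase, had 1827, 1728 and 2532 CPM in tumours, against 509, 541 and 1042 CPM in adjacent tissue (1.54 ± 0.43, adjusted p = 0.0618). Every tumour lay above every adjacent library, and the gene passed with the block (adjusted p = 0.0192), with DESeq2 (0.00235) and with limma-voom (0.0337). Acly, the ATP citrate lyase that supplies cytosolic acetyl-CoA, had 493, 190.2 and 319 CPM in tumours, against 202, 109 and 249 CPM in adjacent tissue (0.84 ± 0.46, adjusted p = 0.337). Acaca, the acetyl-CoA carboxylase of fatty acid synthesis, had 114, 93.9 and 74.2 CPM in tumours, against 72.5, 63.4 and 61.7 CPM in adjacent tissue (0.51 ± 0.29, adjusted p = 0.342). With Fasn, these were the 3 of 13 genes that were higher in the tumour of all 3 mice, against 28.2% of all genes. Acaca also had non-overlapping groups, so that 2 of the 13 genes, Fasn and Acaca, lay wholly above adjacent tissue, against 11.6% of all genes.

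Scd1, the main stearoyl-CoA desaturase, had 3096, 1530.2 and 1423 CPM in tumours, against 2134, 3889 and 3896 CPM in adjacent tissue (-0.71 ± 0.48, adjusted p = 0.438). It was higher in the tumour of mouse 102 and lower in those of mice 217 and 224. Scd2, a close paralogue whose reads can be shared with Scd1, had 88.0, 519 and 131 CPM in tumours, against 108, 621 and 195 CPM in adjacent tissue (-0.32 ± 0.83, adjusted p = 0.873), so mouse 217 was high in both tissues. Thrsp, a regulator of lipogenesis, was near the floor, with 0.512, 2.86 and 0.729 CPM in tumours, against 2.49, 2.74 and 0.984 CPM in adjacent tissue (-0.60 ± 0.81, adjusted p = 0.740). Neither gene separated the groups. Of the other 7, the mitochondrial carboxylase Acacb (-0.54), the acetyl-CoA synthetase Acss2 (-0.43), the desaturase Fads1 (-0.32) and the elongase Elovl1 (-0.19) had negative log2 fold changes, Elovl6 a positive one (0.20, at 2.03 to 3.96 CPM), and Elovl5 (-0.01) and Fads2 (-0.0043) lay at 0. Their standard errors were 0.29 to 0.49, so changes of that size were not resolved with 3 mice.

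The 3 glycerolipid genes, which esterify fatty acids, differed among themselves. Dgat2, which makes triglyceride from newly made fatty acids, had 5.37, 3.25 and 5.44 CPM in tumours, against 13.7, 10.2 and 23.9 CPM in adjacent tissue (-1.77 ± 0.46, adjusted p = 0.0501). Its groups did not overlap, and it passed with the block (adjusted p = 0.0253) and with DESeq2 (0.00219). Gpam, the mitochondrial glycerol-3-phosphate acyltransferase, had 42.5, 23.3 and 16.0 CPM in tumours, against 80.6, 13.6 and 122 CPM in adjacent tissue (-1.41 ± 0.73, adjusted p = 0.305), and it was higher in the tumour of mouse 217 and lower in those of mice 102 and 224. Dgat1, the other diacylglycerol acyltransferase, had 15.7, 31.4 and 35.4 CPM in tumours, against 16.9, 40.4 and 26.9 CPM in adjacent tissue (-0.03 ± 0.44, adjusted p = 0.983). Dgat1 was the nearest to 0 of the 3, with each tissue at its lowest in mouse 102.

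Further genes of these pathways, from lists drawn up for context, followed no single direction. Of all genes tested, 7.18% passed as lower and 2.86% as higher, so 1 call in lists this short says little about the list. Of 13 genes of sterol storage, efflux and LXR signalling, Cyp27a1, the sterol 27-hydroxylase, fell (-2.02 ± 0.42, adjusted p = 0.0274). Of 18 tested genes of fatty acid synthesis and activation outside the 38, 2 rose and the median was 0.53. Me1, the malic enzyme that supplies NADPH, had 1036, 362 and 538 CPM in tumours, against 101, 104 and 108 CPM in adjacent tissue (2.62 ± 0.45, adjusted p = 0.0155). Elovl7, an elongase, had 47.6, 27.5 and 31.9 CPM in tumours, against 8.42, 5.94 and 5.76 CPM in adjacent tissue (2.41 ± 0.36, adjusted p = 0.0111). For both genes all tumours lay above all adjacent libraries. Of 12 other glycerolipid genes Agpat4, an acyltransferase, fell (-2.46 ± 0.41, adjusted p = 0.0147). Of 8 genes of surfactant phospholipid synthesis the choline kinase Chka rose (1.85 ± 0.46, adjusted p = 0.0427), and of 16 genes of fatty acid oxidation the acyl-CoA dehydrogenase Acadl rose (1.282 ± 0.330, adjusted p = 0.0494). With 1 library left out, Elovl7 passed in all fits but that without adjacent 224 (adjusted p = 0.0516) and Agpat4 in all but those without tumour 102 (0.0603) or tumour 224 (0.0522). Me1 did not pass without adjacent 102 (0.0605), 217 (0.0541) or 224 (0.0660), and Cyp27a1 passed only without tumour 217 (0.0717 to 0.0933 in the others). Neither Chka nor Acadl passed in any of these fits, and Chka did not pass with the block either (0.0770). The others passed with the block: Acadl (0.0158), Me1 (0.0192), Elovl7 (0.0110), Agpat4 (0.0109) and Cyp27a1 (0.0261).

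The cell types in the 2 tissues differed alongside these genes. For the counts of markers called, 7.18% of all genes tested passed as lower and 2.86% as higher, so 1 lower marker of a list says little. The 9 AT2 markers summed to 72490 to 224360 CPM in tumours and 21101 to 41299 CPM in adjacent tissue, with 3 of 9 higher. The 6 endothelial markers summed to 409 to 465 CPM in tumours and 1978 to 3313 CPM in adjacent tissue, with 5 of 6 lower. The 8 alveolar macrophage markers summed to 908 to 2249 CPM in tumours and 581 to 8115 CPM in adjacent tissue, with 1 of 8 lower, the lowest sum being that of adjacent 102. Chil3 made up most of these sums, with 7439 of 8115 CPM in adjacent 217. Ciliated (4 of 4), club (2 of 4), AT1 (2 of 6), smooth muscle (2 of 4), T cell (1 of 6), B cell (1 of 4), mesothelial (1 of 3) and neutrophil (1 of 4) markers also included genes that were lower, while none of 5 fibroblast or 4 erythroid markers was called. Their sums did not overlap between the groups, with 369 to 724 CPM in tumours and 888 to 1355 CPM in adjacent tissue for fibroblast markers and 110.02 to 2509 CPM in tumours and 3791 to 16691 CPM in adjacent tissue for erythroid markers. Fat cell markers summed to 0.262 to 1.19 CPM in tumours and 8.82 to 13.1 CPM in adjacent tissue, with 1 of 3 tested lower (Cidea). Cidec (5.71 to 8.34 CPM, against 0 to 0.995 CPM in tumours) and Cidea (0.958 to 3.73 CPM, against 0 to 0.0568 CPM) made up most of the adjacent sums. Adipoq and Lep averaged 0 CPM in tumours and at most 0.050 CPM in adjacent tissue. None of 6 proliferation genes or 4 early stress genes was called, though the stress genes summed to 197 to 227 CPM in tumours and 340 to 592 CPM in adjacent tissue, with no overlap. The part of these cell types in the results for the 38 genes was not tested.

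The branches were next set against each other within each library, as the mean of log2(CPM + 0.5) over the 18 sterol genes minus that over the 13 fatty acid genes. The difference was -1.77, -1.76 and -1.87 in tumours 102, 217 and 224, against -1.08, -0.64 and -0.83 in adjacent tissue of the same mice, so the sterol branch stood lower relative to the fatty acid branch in every tumour than in any adjacent library. The group means differed by -0.95, and by -1.07 to -0.79 under the alternatives run. The sterol mean was 4.54, 4.71 and 4.39 in tumours, against 5.23, 5.72 and 5.58 in adjacent tissue, while the fatty acid mean was 6.31, 6.47 and 6.27 in tumours, against 6.31, 6.35 and 6.41 in adjacent tissue. The gap between tumour and adjacent tissue thus lay in the sterol mean, and the fatty acid means overlapped. By summed CPM, which the most abundant genes dominate, the sterol genes came to 415 to 540 CPM in tumours and 779.9 to 1124 CPM in adjacent tissue, and the fatty acid genes to 4591 to 6281 CPM in tumours and 3698 to 6130 CPM in adjacent tissue. These scores are given as a description, with no test.

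**Figure D3:**
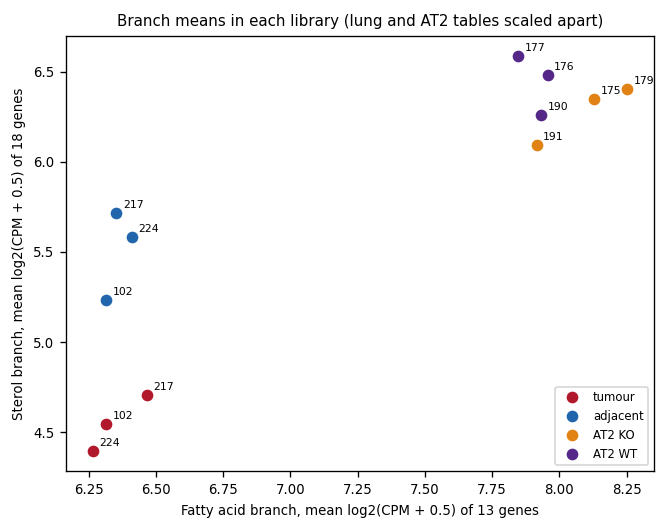
Mean log2(CPM + 0.5) of the 13 fatty acid genes (x axis) and of the 18 sterol genes (y axis) in each of the 12 libraries, labelled by mouse. Tumours lie at 4.39 to 4.71 and adjacent tissue at 5.23 to 5.72 on the y axis at like positions on the x axis. The lung and AT2 tables were scaled apart, so positions of AT2 points relative to lung points are a description.

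The second comparison asked whether AT2 cells of mice with the T cell knockout differed from those of wild-type mice at 6 months. No synthesis gene passed: edgeR called 0 of the 37 tested and 0% of all 14053 genes, with a smallest adjusted p of 0.447, and DESeq2 and limma-voom called 0 of the 37 as well (1 and 0 of all genes). At an unadjusted p under 0.05 there was 1 of the 37 with edgeR, Acacb, against 2.47% of all genes (347). The sterol genes had 15 negative and 3 positive log2 fold changes with a median of -0.24, and the fatty acid genes 3 negative and 9 positive with a median of 0.15, against a median of -0.01 and 51.1% negative over all genes, and with library totals Pmvk and Nsdhl of the sterol genes and Elovl5 and Fads1 of the fatty acid genes turned positive. Without wild-type 177 the medians were -0.10 and 0.11, and without knockout 179 the fatty acid genes had 6 negative and 6 positive log2 fold changes with a median of 0.017. The largest log2 fold change of the 37 was 0.43 in size and their median standard error 0.18.

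**Figure D4:**
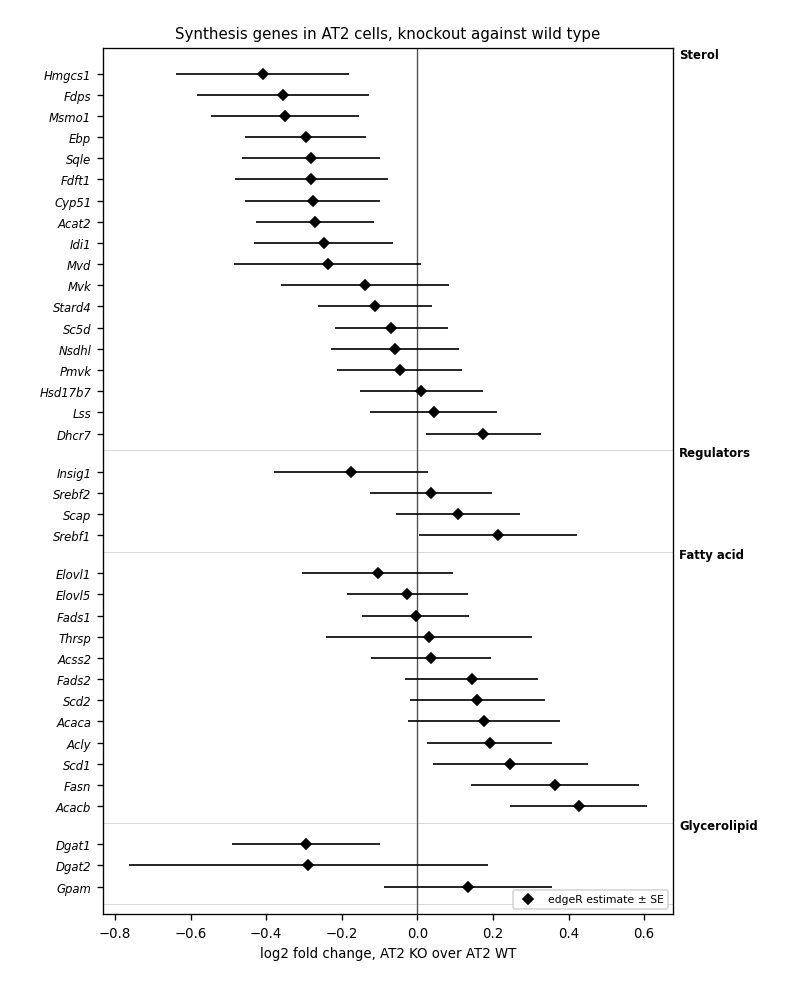
Log2 fold change (x axis, AT2 knockout over AT2 wild type) of the 37 tested genes, with bars of 1 standard error, ordered by value within each group. All lie between -0.41 (Hmgcs1) and 0.43 (Acacb), and no adjusted p was under 0.05.

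At the sterol end, Hmgcs1 had 295, 276 and 193 CPM in knockout AT2 libraries 175, 179 and 191, against 298, 458 and 258 CPM in wild-type libraries 176, 177 and 190 (-0.41 ± 0.23, adjusted p = 0.984). Fdps had 10.7, 13.01 and 8.80 CPM in knockout cells, against 16.2, 15.4 and 10.1 CPM in wild-type cells (-0.36 ± 0.23, adjusted p = 0.984). Both overlapped between the genotypes, and for Hmgcs1 wild-type 177 was the highest. Ebp was the only sterol gene with non-overlapping groups, at 23.0, 22.1 and 20.4 CPM in knockout cells, against 25.8, 31.0 and 23.5 CPM in wild-type cells (-0.30 ± 0.16, adjusted p = 0.984), where 4.11% of all genes did so in that direction. The highest of the branch were Dhcr7, with 54.0, 64.8 and 51.1 CPM in knockout cells, against 54.2, 52.6 and 43.7 CPM in wild-type cells (0.17 ± 0.15, adjusted p = 0.984), and Lss, the lanosterol synthase, with 166, 189 and 132 CPM in knockout cells, against 178, 139 and 156 CPM in wild-type cells (0.04 ± 0.17, adjusted p = 0.990). The genotypes overlapped for each.

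The 4 genes that fell in tumours, Idi1, Msmo1, Cyp51 and Sqle, had log2 fold changes of -0.35 to -0.25 in AT2 cells with standard errors of 0.18 to 0.20. Among regulators, Srebf1 had 556, 672 and 503 CPM in knockout cells, against 636, 358 and 500.0 CPM in wild-type cells (0.21 ± 0.21, adjusted p = 0.984). Srebf2 had 519, 512 and 479 CPM in knockout cells, against 561, 401 and 509.9 CPM in wild-type cells (0.04 ± 0.16, adjusted p = 0.991). In both genes wild-type 177 was the lowest library and the other 5 lay closer together. Insig1 had 292, 352 and 216 CPM in knockout cells, against 380.4, 336 and 256 CPM in wild-type cells (-0.18 ± 0.20, adjusted p = 0.984). Scap had 121, 119 and 110.4 CPM in knockout cells, against 127, 84.4 and 114 CPM in wild-type cells (0.11 ± 0.17, adjusted p = 0.984). These 2 overlapped between the genotypes as well.

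Of the fatty acid genes, Acacb had 60.2, 65.4 and 39.8 CPM in knockout cells, against 40.8, 40.0 and 42.4 CPM in wild-type cells (0.43 ± 0.18, adjusted p = 0.984), with knockout 191 below all wild-type libraries. Fasn had 5815, 6218 and 5017 CPM in knockout cells, against 4796, 2990.2 and 5467 CPM in wild-type cells (0.36 ± 0.22, adjusted p = 0.984), with the lowest value in wild-type 177. Scd1 was the most abundant of the 38 genes, with 21144, 25085 and 16481 CPM in knockout cells, against 14746, 19510.0 and 18635 CPM in wild-type cells (0.25 ± 0.21, adjusted p = 0.984). All 3 genes overlapped between the genotypes. At the other end were 2 elongases. Elovl1 had 1689, 1737 and 1446 CPM in knockout cells, against 1456, 2299 and 1488 CPM in wild-type cells (-0.11 ± 0.20, adjusted p = 0.984), and Elovl5 had 206, 218 and 218 CPM in knockout cells, against 177, 257 and 220.1 CPM in wild-type cells (-0.03 ± 0.16, adjusted p = 0.994). For each, wild-type 177 was the highest library. Elovl6, which extends palmitate to stearate, was too low to be tested, at 0.494 to 0.584 CPM in knockout cells and 0.115 to 0.176 CPM in wild-type cells.

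The glycerolipid genes were likewise not separated in AT2 cells. Gpam had 372, 432 and 425 CPM in knockout cells, against 419, 236 and 464 CPM in wild-type cells (0.13 ± 0.22, adjusted p = 0.984). Dgat1 had 15.9, 12.3 and 20.02 CPM in knockout cells, against 21.6, 19.3 and 18.3 CPM in wild-type cells (-0.29 ± 0.20, adjusted p = 0.984). Dgat2 had 2.04, 0.878 and 0.724 CPM in knockout cells, against 1.65, 1.61 and 1.21 CPM in wild-type cells (-0.29 ± 0.48, adjusted p = 0.984). Wild-type 177 was the lowest library for Gpam, and Dgat2 was close to the floor of detection in all 6. None of the 6 further pathway lists held a gene that passed in AT2 cells. The sterol minus fatty acid difference of mean log2(CPM + 0.5) was -1.78, -1.85 and -1.82 in knockout cells, against -1.48, -1.26 and -1.67 in wild-type cells. The genotypes did not overlap in this difference. Their means lay -0.35 apart, and -0.24 apart without wild-type 177, and this was not tested. Wild-type 177 and 176, whose levels fell with gene length, lay farthest from the knockout cells, and wild-type 190 lay nearest to them. The part of gene length in this was not tested.

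Levels per kilobase of exon, which allow genes to be set beside each other, showed which steps carried the most transcript. Scd1 led in every group, at 412 CPM per kilobase in tumours, 676 in adjacent tissue, 4273 in knockout and 3604 in wild-type AT2 cells. In tumours Fasn came next at 185, while in adjacent tissue Elovl5 (64.2), Fasn (63.7) and Elovl1 (60.9) stood close together. In AT2 cells the next was Elovl1, which makes saturated very-long-chain fatty acids, at 596 in knockout and 641 in wild-type cells, followed by Fasn (519) and Scd2 (458) in knockout cells and by Scd2 (411) and Fasn (404) in wild-type cells. In the sterol branch Hmgcs1 was the highest in AT2 cells (55.4 in knockout and 73.6 in wild-type cells) and in adjacent tissue (27.1), while in tumours Pmvk (19.2), Ebp (16.6) and Hmgcs1 (15.8) came first.

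Across the tables, 28 of the 38 genes had every AT2 library above every lung library in CPM, among them 14 of 18 sterol and 10 of 13 fatty acid genes. Each table was scaled on its own, and the AT2 cells were sorted and came from younger mice (6 against 18 months). The share over all genes was not worked out, so the count is a description and not shown to be particular to these genes. The summed AT2 markers were higher in sorted cells than in adjacent tissue but overlapped those of tumours, tumour 217 having the highest sum of all 12 libraries. Sftpc made up most of that sum, with 182980 of 224360 CPM in tumour 217. Cebpa overlapped too, at 932 to 1243 CPM in tumours and 659 to 1211 CPM in AT2 libraries. Each of the other AT2 markers lay lower in every tumour than in every AT2 library. Tumours had the lowest sterol means of the 4 groups: Idi1 averaged 3.95 CPM per kilobase in tumours, 15.6 in adjacent tissue, 39.0 in knockout and 46.4 in wild-type AT2 cells. The part of cell types in this was not tested. The genes that ran the other way were Fdps, Elovl6 and Dgat2, for which every AT2 library lay below every lung library. Fdps was the lowest sterol gene of AT2 cells, at 2.57 CPM per kilobase in knockout and 3.30 in wild-type cells, against 8.37 in tumours and 21.0 in adjacent tissue, levels that may include or lack reads of the stretch it shares with Gm43738.

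**Figure D5:**
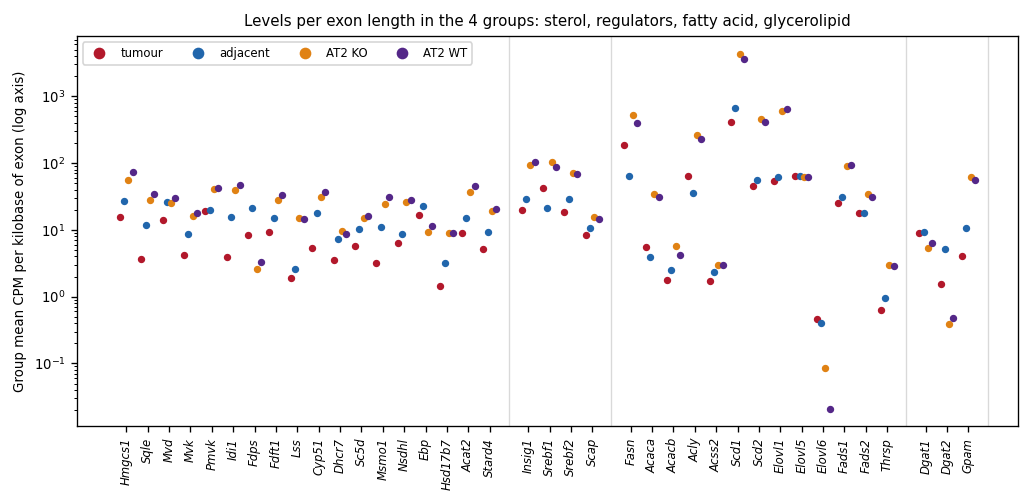
Group mean CPM per kilobase of exon (y axis, log scale) of the 38 genes in tumours, adjacent tissue, AT2 knockout and AT2 wild-type cells, with vertical lines between the sterol, regulator, fatty acid and glycerolipid genes. Scd1 is the highest in each group (412, 676, 4273 and 3604), and Fdps, Elovl6 and Dgat2 are lower in AT2 cells than in lung tissue.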

How the data were processed

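Poly-A RNA was made into libraries with a NEBNext Ultra kit, per the labels' protocols. The authors deposited whole-number counts per gene, not normalised, in separate tables for the 6 lung and the 6 AT2 libraries. The submitters' processing notes name HISAT2, StringTie 1.3.3b, Trimmomatic 0.39, FastQC and DESeq2 1.28.1, with GRCm38 (mm10). How alignments were counted, with which strand setting and annotation, is not given in the sources used here. Genes were named and measured by GENCODE M21, which matched all but 1035 of the lung and 37 of the AT2 identifiers (0.0388% and 0.0038% of counts).

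Each table was tested in R 4.3.3 with edgeR 4.0.16: its filter on low counts, TMM scaling, the quasi-likelihood test with group as the only term, and Benjamini-Hochberg adjustment over all genes tested at 0.05. The alternatives were other scalings, no filter, limma-voom (limma 3.58.1), DESeq2 1.42.0, an offset for gene length, libraries or mice left out, and the mouse as a block. These steps were tested on simulated counts with known changes. At a low dispersion they recovered nearly all of them, and at the dispersion estimated from the data they recovered most in AT2 cells. In lung at the estimated dispersion none of the known changes passed adjustment, although nearly all had the right sign. The known changes were planted in far fewer genes than the 2007 called in the lung data, which makes adjustment stricter than in the data. A lung gene that did not pass is in any case not shown to be unchanged. Tumour and adjacent tissue share a mouse number, and their deviations from the group means went together (correlation across genes, Pearson r: 0.273 in mouse 102, 0.459 in 217 and 0.366 in 224), so the numbers pair the samples. The labels state no paired fit, and the block is an alternative. Ratios within a mouse use log2(CPM + 0.5). The mice are separate animals by their numbers.

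The 38 genes, the branches and the further lists were chosen with earlier results of these data known. Values per library are given, by rule, for genes that passed, for the highest and lowest 2 of each branch in each comparison and for the regulators. Hmgcs1, Fdps, Acaca and Scd2 in lung and Ebp, Scd1 and Elovl6 in AT2 cells were added after their values were seen. Of the further lists, the genes that passed are named, except that 1 list of sterol genes is not reported here for the lung.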

Additional observations from a re-analysis of the deposited data

How the results depend on the processing

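Of 1209 log2 fold changes of members and other named pathway genes recomputed under alternatives, 1141 kept their direction, and the 68 that did not had adjusted p of at least 0.709 and were at most 0.70 in size. Counts of tumour against adjacent tissue depended most on replicates and on the fit. The 4 members called became 12 with the mouse as a block (the 4 included) and 11 with the block and the gene length offset, against 2980 and 3006 of all genes, and 7 with DESeq2, which called 3729 genes against 2007. Without both libraries of mouse 217, 1 member and 847 genes passed, and without those of mouse 102 or of mouse 224, 0 members and 0 genes. Leaving out 1 library gave 0 to 5 members and 598 to 1854 genes. Scaling by library totals moved the median of all genes by -0.22, put the sterol median at -1.11 and left 393 of 2233 calls higher (17.6%, against 28.5%), and testing without a filter moved the median of all genes by -0.11. In AT2 cells 0 members passed in every fit run, while over all genes DESeq2 called 1, no filter 17 and leaving out a library 0 to 1. The cause of these shifts was not tested. Elovl6 in AT2 cells, at 0.115 to 0.584 CPM, was below the depth needed for a test. Pairing does not apply to AT2 cells, which came from different mice.

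The following members near 0 changed sign. In tumours against adjacent tissue, Elovl5 came to 0.0066 with RLE size factors and with DESeq2, 0.021 with the length offset, 0.081 without mouse 217 and 0.046 without mouse 224. Fads2 came to 0.023 with RLE, DESeq2 and the length offset, 0.037 without mouse 102 and 0.17 without mouse 224. Elovl6 came to -0.051 with library totals and -0.17 without mouse 217, Dgat1 to 0.15 without mouse 217 and Pmvk to 0.23 without mouse 224. In AT2 cells with library totals, Pmvk came to 0.0051, Nsdhl to 0.0088, Elovl5 to 0.040 and Fads1 to 0.053 (0.0015 with no filter). With the length offset, Pmvk came to 0.022, Elovl5 to 0.0029, Lss to -0.060, Hsd17b7 to -0.0011, Srebf2 to -0.012 and Acss2 to -0.070.

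With 1 library left out, the ranges that crossed 0 in tumours against adjacent tissue were -0.41 to 0.34 for Pmvk, -1.57 to 0.70 for Scd2, -0.46 to 0.20 for Elovl1, -0.39 to 0.20 for Elovl5, -0.12 to 0.39 for Elovl6, -0.35 to 0.11 for Fads2 and -0.29 to 0.33 for Dgat1. In AT2 cells they were -0.43 to 0.12 for Mvd, -0.34 to 0.18 for Mvk, -0.18 to 0.11 for Pmvk, -0.19 to 0.12 for Nsdhl, -0.17 to 0.064 for Sc5d, -0.091 to 0.17 for Lss and -0.093 to 0.13 for Hsd17b7. Among the regulators they were -0.092 to 0.14 for Srebf2 and -0.046 to 0.24 for Scap. Among the fatty acid and glycerolipid genes they were -0.026 to 0.33 for Acaca, -0.049 to 0.13 for Acss2, -0.22 to 0.14 for Elovl1, -0.16 to 0.11 for Elovl5, -0.083 to 0.054 for Fads1, -0.0088 to 0.32 for Fads2, -0.011 to 0.27 for Scd2, -0.14 to 0.29 for Thrsp and -0.11 to 0.32 for Gpam.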
